A study of Mus musculus with 12 samples.

Results

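The mitochondrial ribosomal protein genes Mrpl and Mrps were followed in lineage-negative, cKit-positive bone marrow cells of 4 donor genotypes. Members were taken by name (Mrpl or Mrps followed by a number) with a mean of at least 1 TPM (transcript abundance scaled for length and library size) over the 12 libraries. All 77 genes with such a name, among 24411 genes listed, met the TPM threshold, and all 77 passed the low-count filter and were tested. By name 48 belong to the large subunit (Mrpl) and 29 to the small subunit (Mrps). By the structure of the mammalian mitoribosome, the products of Mrps30 and Mrps18a sit in the large subunit, and that of Mrps36 is a subunit of the alpha-ketoglutarate dehydrogenase complex, which gives 50 large and 26 small subunit genes.

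The donor marrow was CD45.2+ on the C57BL/6 background and carried the Mx1-Cre transgene in every group, including the controls. Its Cre is driven by an interferon-inducible promoter and is switched on by pIpC in blood-forming and other cells. The double group carried Mx1-Cre with both Sf3b1 K700E, a heterozygous mutation of a splicing factor, and the Inv(3) allele, named after the human chromosome 3 inversion that puts a GATA2 enhancer beside EVI1 (mouse symbol Mecom). The inv(3) group carried Mx1-Cre with Inv(3), the K700E group carried Mx1-Cre with Sf3b1 K700E, and the control group carried Mx1-Cre alone, with 3 libraries in each. Each donor marrow had been mixed with wild-type CD45.1+ support marrow and given to irradiated CD45.1+ recipients, which received 3 doses of pIpC at 20 mg/kg from 4 weeks after transplantation, and cells from femora and tibiae were collected 6 months after pIpC. The sources used here do not state whether CD45.2+ cells were sorted away from support and recipient cells. The labels do not say whether replicates are separate mice, so p-values measure only the spread between these samples.

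The mitoribosome translates the few proteins encoded by mitochondrial DNA, all of them core parts of the respiratory chain and ATP synthase. Its RNAs come from the mitochondrial genome, whereas every one of its proteins is encoded in the nucleus, made in the cytosol and imported. The large subunit joins amino acids and holds the exit tunnel, the small subunit reads the messenger RNA, and each carries proteins shared with bacteria beside others found only in mitochondria. Loss of mitochondrial translation leaves the respiratory chain without its core subunits, and red cell precursors are among the blood cells known to need it.

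Library totals ran between 73074797 and 86555638 expected counts, and no member fell below 513 counts in any library. Kit stood between 133.9 and 161.0 TPM in every library, and Cd3e, a marker of T cells, did not exceed 0.19 TPM, so the gate named in the labels matched its markers. The summed counts of Y-linked genes were 4 to 8 per library in inv(3) and 19200 to 25380 in the remaining 9 libraries, so comparisons that use the inv(3) group also set libraries without Y-linked RNA against libraries with it. Xist stood at 23.1 to 39.5 CPM in double, 1729 to 2014 CPM in inv(3), 80.2 to 222 CPM in K700E and 24.2 to 40.5 CPM in control, so K700E libraries also differed from double and control libraries in it. Its part in the results was not tested. No member lies on X or Y. Within the 9 libraries with Y-linked RNA alone, 33 members were lower in double against control and 27 in double against K700E by edgeR. Neither comparison uses inv(3) libraries, so this fit mainly changes the estimate of the spread. It cannot check the comparisons that use the inv(3) group, and the share of all genes called in it is not given. Mouse Mecom stood at 3.57 to 4.51 TPM in double libraries and 1.35 to 2.27 TPM in inv(3), against 3.49 to 5.33 TPM in K700E and 2.70 to 3.15 TPM in control. It was thus lowest in the libraries labelled inv(3), and the labels do not say whether the allele carries mouse or human sequence, so these values give no check of the genotype. Gene counts cannot show the Sf3b1 mutation either.

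Replicate 2 of the inv(3) group had the most members far above the other libraries of its own group. There 13 of 77 members exceeded the mean of the other inv(3) libraries by more than 0.25 log2 units, and none lay as far below it. Mrpl57 led them with 34.5 CPM (counts scaled to library size with TMM factors) in that library and 19.5 and 21.5 CPM in the other inv(3) libraries, followed by Mrps12 with 25.8 against 18.3 and 15.7 CPM. The library from K700E replicate 1 had 11 such members, the next highest number. By the median absolute difference from the other libraries of the group, inv(3) replicate 2 was not the furthest, at 0.074 log2 units. That value was 0.081 in K700E replicate 1 and in control replicate 1, and 0.080 in double replicate 1. Across the 77 members, the correlation between a library's deviation from its group mean and the GC content of the gene's transcripts was 0.38 in inv(3) replicate 2, 0.68 in K700E replicate 1, 0.61 in control replicate 3 and -0.67 in control replicate 1. These correlations are across genes, which are not independent replicates. An offset for GC content was added as an alternative, and its counts are given below where they differ.

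The member genes were expressed over a 35.9-fold range of length-normalised levels. Over the 12 libraries the large subunit genes had a median of 64.0 TPM and the small subunit genes a median of 57.5 TPM. Mrpl33 was highest, at 323 ± 19.4 TPM in the double group, 345 ± 9.96 TPM in inv(3), 332 ± 22.4 TPM in K700E and 339 ± 27.5 TPM in control (SD, n = 3 each). These 4 means lay within the spread of the libraries. Mrpl42 and Mrpl30 followed in the large subunit with means of 187 and 166 TPM, and Mrps21, Mrps18c and Mrps16 led the small subunit with 217, 165 and 154 TPM. The lowest were Mrps25, Mrps31 and Mrps6 in the small subunit, at 9.32, 24.6 and 26.0 TPM, and Mrpl17, Mrpl57 and Mrpl35 in the large subunit, at 10.9, 16.1 and 16.4 TPM.

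Taken as a sum, the member transcripts were a smaller part of the transcriptome in both groups with the inv(3) allele. The 48 large subunit genes summed to 3476, 3510 and 3413 TPM in the double libraries and to 3502, 3574 and 3534 TPM in the inv(3) libraries, against 3985, 4013 and 3890 TPM in K700E and 3810, 3852 and 3912 TPM in control. In TPM, every library with the inv(3) allele lay below every library without it. The 29 small subunit genes kept the same order, with 1900 ± 32.5 TPM in the double group, 1946 ± 32.4 TPM in inv(3), 2159 ± 32.5 TPM in K700E and 2104 ± 24.4 TPM in control (SD, n = 3 each). For all 77 members together the double group reached 90.0%, inv(3) 91.96% and K700E 102.7% of the control mean in TPM. In sums of TMM-scaled CPM this separation was lost. There the large subunit genes summed to 1995 CPM in inv(3) replicate 2, above the control libraries (1942, 1981 and 1978 CPM). The double libraries stayed lowest, at 1780, 1840 and 1763 CPM. In bulk samples, fewer cells of a type and less RNA per cell cannot be told apart.

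**Figure D1:**
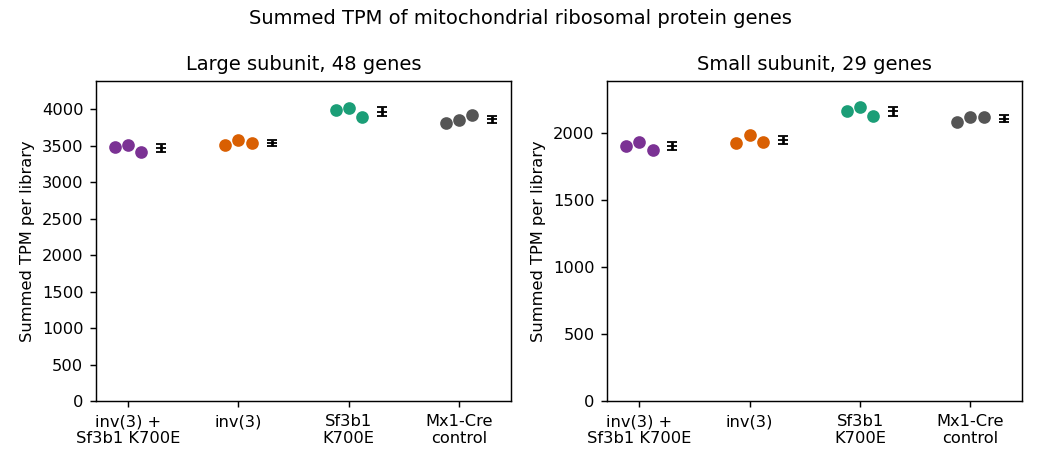
Summed TPM of the 48 large subunit genes (left) and the 29 small subunit genes (right) in each library, by donor genotype; points are libraries and the bar beside them is the mean ± SD of 3. The 3 double and 3 inv(3) libraries lie between 3413 and 3574 TPM for the large subunit, below all 6 K700E and control libraries (3810 to 4013 TPM).

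The ratio of the subunits differed little between groups, and its order depended on the scale. In sums of TPM the ratio of large to small subunit TPM was 1.82 ± 0.0079 in the double group, 1.82 ± 0.015 in inv(3), 1.84 ± 0.0068 in K700E and 1.83 ± 0.016 in control (SD, n = 3 each), and the ranges of all 4 groups overlapped. In sums of TMM-scaled CPM the ratio was 1.921, 1.922 and 1.929 in double libraries, below all 9 others (1.9331 to 1.9597). In medians of TPM it was 1.04 to 1.11 in double, 0.963 to 1.06 in inv(3), 1.11 to 1.15 in K700E and 1.04 to 1.13 in control, without overlap between inv(3) and K700E. The size of the difference depended on the scale. Members made up 0.264% to 0.273% of the counts in double libraries, 0.273% to 0.286% in inv(3), 0.302% to 0.313% in K700E and 0.295% to 0.304% in control. After TMM scaling, which gave factors of 0.949 to 0.964 to inv(3) libraries and 1.04 to 1.06 to K700E libraries, the large subunit sum in inv(3) against control was -0.03 on the log2 scale, compared with -0.13 in TPM. In the double group against control it was -0.13 after TMM scaling and -0.15 in TPM, while in K700E against control the sign turned, with -0.02 after TMM scaling and 0.04 in TPM. The per-gene tests below use TMM scaling of counts, and a gene is called where the adjusted p of edgeR's quasi-likelihood test over all 13755 tested genes is under 0.05.

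Against control, inv(3) marrow showed a fall of single member genes, and the shift of the whole group depended on the scale. Of 77 members, 13 fell and 1 rose. In this comparison 38.7% of all tested genes were called, 20.3% as lower, so the 13 of 77 are not above the background. The median log2 change was -0.02 over the members, -0.03 over the large subunit and -0.02 over the small subunit, against 0.00 over all genes. With upper-quartile scaling 22 members were called, all lower, with a median of -0.065. The share and median of all genes under that scaling are not given, so neither value has a background. The sums of TPM given above were lower in every inv(3) library than in every control library, which did not hold for sums of TMM-scaled CPM. The groups did not overlap in 25 members that were lower and 5 that were higher in inv(3), with 26.9% and 24.9% of all genes doing so. Leaving out inv(3) replicate 2 left 7 calls, all lower, with a median of -0.04. Counts of 6 to 9 also came without control replicate 2 (7 calls), control replicate 3 (6), inv(3) replicate 1 (9), inv(3) replicate 3 (9) or K700E replicate 2 (9). For these fits with a library left out, the shares of all genes called are not given.

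Mrps22, a small subunit protein found only in mitochondria, whose human gene is mutated in a combined oxidative phosphorylation deficiency, carried the clearest change of the small subunit. It had 19.3, 20.1 and 18.5 CPM in double libraries, 19.5, 19.8 and 21.9 CPM in inv(3), 26.5, 27.8 and 26.2 CPM in K700E and 25.4, 23.8 and 24.8 CPM in control. All 6 libraries with inv(3) lay below all 6 without it. Its log2 change was -0.27 ± 0.06 in inv(3) against control (SE, n = 3 each, edgeR adjusted p = 0.0032), -0.35 ± 0.06 in double against control (edgeR adjusted p = 0.00056) and -0.47 ± 0.06 in double against K700E (edgeR adjusted p = 5.15e-05). All 3 calls held under every alternative run.

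Mrpl50, a mitochondria-specific protein of the large subunit, had 41.6, 42.7 and 41.5 CPM in double libraries and 40.6, 40.3 and 41.6 CPM in inv(3), against 49.7, 53.7 and 52.3 CPM in K700E and 50.1, 47.4 and 47.1 CPM in control. Here too the groups with and without inv(3) did not overlap. Its change was -0.24 ± 0.04 in inv(3) against control (SE, edgeR adjusted p = 0.00095) and -0.31 ± 0.04 in double against K700E (edgeR adjusted p = 0.00011), and neither call was lost under any alternative. Zfp189, a zinc-finger gene that starts within 1000 bases of Mrpl50 in the opposite direction, also fell in both comparisons, by 0.23 and by 0.36 (edgeR adjusted p = 0.017 and 0.0010).

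Mrpl35, which has a bacterial counterpart in the large subunit, had 29.004, 30.9 and 27.3 CPM in double libraries and 30.7, 31.1 and 32.7 CPM in inv(3), against 37.5, 40.3 and 39.4 CPM in K700E and 37.2, 34.9 and 33.7 CPM in control. The double libraries were among the lowest and the K700E libraries the highest. It fell by 0.16 ± 0.06 in inv(3) against control (SE, edgeR adjusted p = 0.043), by 0.28 ± 0.06 in double against control (edgeR adjusted p = 0.0023) and by 0.43 ± 0.06 in double against K700E (edgeR adjusted p = 9.2e-05). The last 2 calls held under every alternative run, and the first is not reported for the alternatives.

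Mrpl52, another mitochondria-specific protein of the large subunit, had the largest change of the 13. It had 9.47, 7.07 and 7.91 CPM in double libraries and 6.73, 9.31 and 7.54 CPM in inv(3), against 13.8, 11.6 and 10.9 CPM in K700E and 10.2, 10.8 and 12.8 CPM in control. The groups with and without inv(3) did not overlap, although the replicates of each group were wide apart. Its change was -0.52 ± 0.15 in inv(3) against control (SE, edgeR adjusted p = 0.016), and -0.57 ± 0.15 in double against K700E (edgeR adjusted p = 0.0074). The first call ended without control replicate 3 (-0.40, edgeR adjusted p = 0.081), inv(3) replicate 1 (-0.42, edgeR adjusted p = 0.059) or inv(3) replicate 3 (-0.49, edgeR adjusted p = 0.052).

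**Figure D2:**
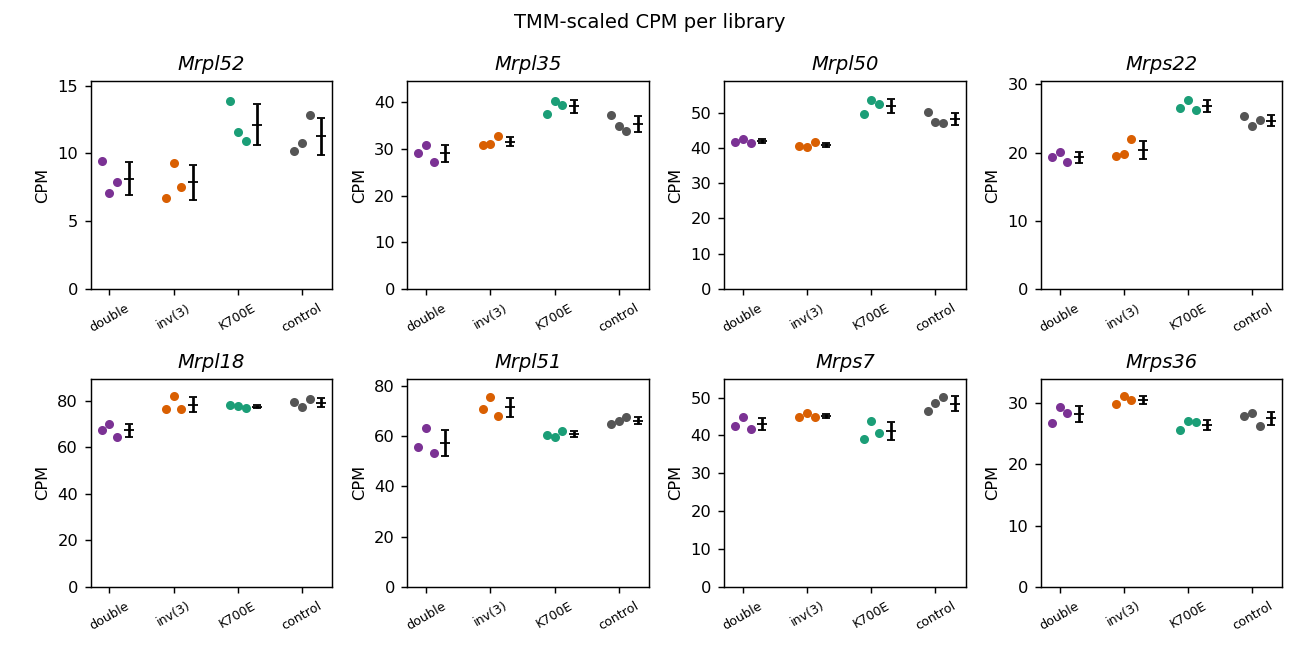
TMM-scaled CPM of 8 members in each library, by donor genotype; points are libraries and bars are the mean ± SD of 3. Mrpl52, Mrpl35, Mrpl50 and Mrps22 are lower in all 6 double and inv(3) libraries than in the K700E and control libraries, Mrpl18 is low in the double libraries (64.6 to 70.0 CPM), and Mrps7 is lower in K700E (39.1 to 43.7 CPM) than in control (46.3 to 50.2 CPM).

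The promoters of these 4 genes are shown as examples. They are among 13 members that were called lower in both comparisons that add the inv(3) allele. Each is 1 RefSeq window of 250 bases before to 50 bases after a RefSeq start (GRCm38.p6), written 5′ to 3′ on the gene's strand. The Mrpl35 window lies inside the GENCODE span of the gene (71812997 to 71826969), so its RefSeq start is not the start of that span. Capitals mark matches, on either strand, to 4 motifs linked to genes for mitochondrial proteins: NRF1, ETS (CCGGAAG), YY1 (AAGATGGC) and the E-box (CACGTG). None of the 4 contains another.
Mrps22, chr9:98601630-98601929, minus strand: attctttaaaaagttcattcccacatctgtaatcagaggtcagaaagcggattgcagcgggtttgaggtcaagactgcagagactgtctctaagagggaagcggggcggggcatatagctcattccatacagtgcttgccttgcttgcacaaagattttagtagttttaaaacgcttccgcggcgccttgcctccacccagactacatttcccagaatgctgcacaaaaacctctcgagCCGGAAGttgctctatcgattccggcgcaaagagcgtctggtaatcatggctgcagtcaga
Mrpl50, chr4:49521034-49521333, minus strand: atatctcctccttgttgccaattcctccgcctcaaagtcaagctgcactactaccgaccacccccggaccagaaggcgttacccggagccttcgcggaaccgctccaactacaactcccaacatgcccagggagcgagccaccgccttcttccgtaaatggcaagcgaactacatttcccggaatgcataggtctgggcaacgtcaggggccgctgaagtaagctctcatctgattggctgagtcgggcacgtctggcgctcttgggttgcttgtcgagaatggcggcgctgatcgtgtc
Mrpl35, chr6:71823735-71824034, minus strand: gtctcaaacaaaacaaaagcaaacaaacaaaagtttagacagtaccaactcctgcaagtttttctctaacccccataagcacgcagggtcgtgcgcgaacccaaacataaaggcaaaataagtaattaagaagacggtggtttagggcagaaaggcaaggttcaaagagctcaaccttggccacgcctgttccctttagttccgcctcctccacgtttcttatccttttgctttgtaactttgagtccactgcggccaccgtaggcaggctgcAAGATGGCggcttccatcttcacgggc
Mrpl52, chr14:54426659-54426958, plus strand: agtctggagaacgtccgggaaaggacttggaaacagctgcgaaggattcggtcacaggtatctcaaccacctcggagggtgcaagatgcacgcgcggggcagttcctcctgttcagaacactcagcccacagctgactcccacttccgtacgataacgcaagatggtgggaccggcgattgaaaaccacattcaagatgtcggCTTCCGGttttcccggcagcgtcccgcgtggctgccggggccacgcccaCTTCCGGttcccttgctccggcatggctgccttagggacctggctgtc
Mrps22 holds 1 ETS match, and Mrpl35 holds 1 YY1 match downstream of its RefSeq start. Mrpl52 holds 2 ETS matches read on the other strand, and Mrpl50 holds none of the 4 motifs in this window. The 4 genes thus share no motif of this set, and the windows of the rest of the 13 are not shown. Over all members, 68 of 77 had a RefSeq promoter, in 74 windows. ETS stood in 33.8% of member windows, against 16.5% of the windows of all tested genes, YY1 in 16.2% against 4.22%, and NRF1 in 17.6% against 9.39%, while the E-box stood in 9.46% against 9.72%. In double against control, the median log2 change was -0.12 in the 25 members with an ETS match and -0.13 in the 43 without, and -0.17 in the 12 members with a YY1 match and -0.11 in the 56 without. It was -0.10 in the 13 with an NRF1 match and -0.13 in the 55 without, and -0.19 in the 5 with an E-box and -0.12 in the 63 without. These medians describe the members, and a match is not a site of binding.

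The other calls in inv(3) against control were smaller. Mrpl3, a large subunit protein with a bacterial counterpart, had 50.8, 51.0 and 52.8 CPM in inv(3) and 59.1, 57.3 and 56.8 CPM in control, a change of -0.16 ± 0.04 (SE, edgeR adjusted p = 0.011). Mrps2, a small subunit protein with a bacterial counterpart, had 55.6, 52.6 and 54.9 CPM in inv(3) and 58.9, 62.4 and 61.1 CPM in control, and fell by 0.16 ± 0.04 (edgeR adjusted p = 0.0052). Neither gene's groups overlapped. Mrpl16, which lies near the peptidyl transferase centre, changed by -0.18 ± 0.05 (edgeR adjusted p = 0.0082). These 3 calls held under every alternative run. Mrpl36 and Mrpl42 each changed by -0.18, Mrps27 by -0.16 and Mrps18b by -0.14, and each lost its call in some of 23 alternatives. Among single libraries these were control replicates 2 and 3, inv(3) replicates 1 and 3 and K700E replicate 2 for Mrpl36 (adjusted p of up to 0.098), and control replicate 1 and inv(3) replicate 2 for Mrpl42 (up to 0.061). For Mrps27 they were control replicates 2 and 3, inv(3) replicates 1 and 2 and K700E replicate 2 (up to 0.14), and for Mrps18b all 3 control replicates, inv(3) replicates 2 and 3 and K700E replicates 2 and 3 (up to 0.12). Mrpl22 and Mrpl39 complete the 13. Mrps36, the member that is not a ribosomal protein, had 29.9, 31.2 and 30.5 CPM in inv(3) and 27.9, 28.3 and 26.3 CPM in control. It rose by 0.15 ± 0.05 (SE, edgeR adjusted p = 0.036), a call lost in 9 of 23 alternatives, among them without any 1 control library, inv(3) replicates 2 and 3 or double replicate 3 (adjusted p of up to 0.11).

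Against control, K700E marrow showed few changes of these genes. Of 77 members 1 rose and 1 fell, where 8.84% of all tested genes were called, 3.94% as higher and 4.9% as lower. The median log2 change was -0.03 over the members, -0.04 over the large and -0.02 over the small subunit, against -0.01 over all genes. The sign of the member median turned under another scaling, with 0.00 after upper-quartile scaling and 0.01 with a GC offset. Upper-quartile scaling called 5 members, 4 higher and 1 lower, and the share of all genes called under it is not given. Mrps7, a small subunit protein of the decoding head, had 39.1, 43.7 and 40.7 CPM in K700E and 46.3, 48.6 and 50.2 CPM in control. The groups did not overlap, and Mrps7 fell by 0.23 ± 0.05 (SE, edgeR adjusted p = 0.019). This call ended without control replicate 2 (-0.23, edgeR adjusted p = 0.079), control replicate 3 (-0.18, edgeR adjusted p = 0.10) or K700E replicate 3 (-0.20, edgeR adjusted p = 0.074), and with the GC offset (-0.16, edgeR adjusted p = 0.099). Mrps6 had 10.9, 11.1 and 10.3 CPM in K700E and 9.12, 9.27 and 9.002 CPM in control, without overlap. It rose by 0.24 ± 0.07 (SE, edgeR adjusted p = 0.045), a call lost in 12 of 24 alternatives. Among them were the fits without any 1 control library, inv(3) replicates 1 or 3, K700E replicates 1 or 2, or double replicates 1 or 3 (adjusted p of up to 0.15). Mrps6 shares exons on the same strand with Slc5a3, a sodium and myo-inositol cotransporter gene that changed by 0.24 in the same comparison (edgeR adjusted p = 0.098), and reads shared by these genes cannot be parted with certainty. The count of 2 members became 0 without control replicate 2 or control replicate 3, and 1 without control replicate 1, any K700E library, inv(3) replicates 1 or 3 or double replicate 3. Shares of all genes called in these fits are not given.

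With both alleles, the fall of the member genes was broad. In double marrow against control, 30 of 77 members fell and none rose by edgeR, where 41.1% of all tested genes were called, 20.4% as lower and 20.8% as higher. The median log2 change was -0.12 over the members, against 0.00 over all genes, and 71 of 77 changes were negative, against 49.6% of all genes. CPM did not overlap between the groups in 41 members, all of them lower in the double group, against 27.5% of all genes. The fall took in 21 of 48 large subunit genes (median -0.13) and 9 of 29 small subunit genes (median -0.11). By role, it took in 10 of 30 large subunit genes with bacterial counterparts, 11 of 20 mitochondria-specific large subunit genes, 7 of 16 small subunit genes with bacterial counterparts and 2 of 10 mitochondria-specific small subunit genes. The lowest of the 4 group means was that of the double group in 51 members, of K700E in 13, of inv(3) in 12 and of control in 1. How often each group was lowest over all tested genes is not given, so these counts have no background. The count of 30 dropped without control replicate 2 (19), control replicate 3 (18), double replicate 1 (18) or double replicate 3 (17), all of them lower calls. The shares of all genes called without these libraries are not given.

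**Figure D3:**
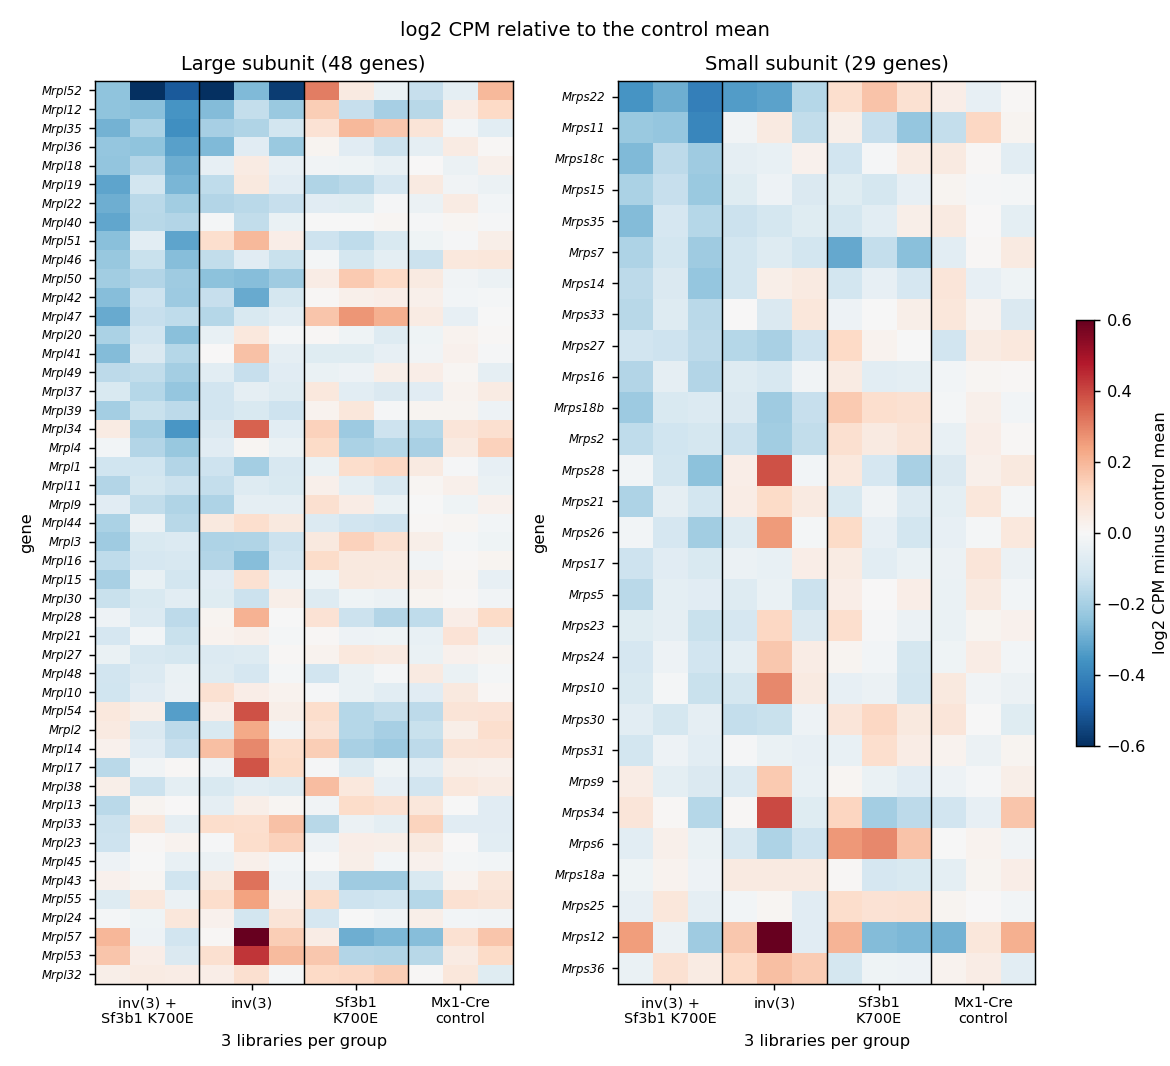
log2 CPM of each member in each of the 12 libraries minus the mean of the 3 control libraries, sorted by the change in double against control; blue is lower and red higher than control. Most rows are blue in the 3 double libraries, and the second inv(3) library shows red rows led by Mrpl57 and Mrps12.

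Beside Mrps22, Mrpl35 and Mrpl52 (-0.47 ± 0.15 in this comparison, edgeR adjusted p = 0.026), the largest falls in the large subunit were those of Mrpl12, Mrpl36, Mrpl18 and Mrpl19. Mrpl12, the stalk protein of the large subunit that also binds the mitochondrial RNA polymerase, had 65.8, 65.4 and 60.8 CPM in double libraries and 69.3, 80.0 and 84.5 CPM in control. Its change of -0.29 ± 0.09 (SE, edgeR adjusted p = 0.026) ended without control replicate 2 (-0.27, edgeR adjusted p = 0.073), control replicate 3 (-0.22, edgeR adjusted p = 0.10) or double replicate 3 (-0.25, edgeR adjusted p = 0.088). The call of Mrpl52 ended without control replicate 3 (-0.36, edgeR adjusted p = 0.11), double replicate 2 (-0.38, edgeR adjusted p = 0.088) or double replicate 3 (-0.45, edgeR adjusted p = 0.075). Mrpl36, the counterpart of bacterial L36, had 38.1, 37.9 and 35.6 CPM in double libraries and 43.1, 46.2 and 44.9 CPM in control, and fell by 0.27 ± 0.06 (SE, edgeR adjusted p = 0.0039) without losing the call in any alternative. Mrpl19 changed by -0.23 ± 0.06 (edgeR adjusted p = 0.012), lost only without double replicate 1 (-0.19, edgeR adjusted p = 0.051). In the small subunit, Mrps11 changed by -0.29 ± 0.09 (edgeR adjusted p = 0.027), Mrps35 by -0.18 ± 0.05 (edgeR adjusted p = 0.022) and Mrps7 by -0.17 ± 0.05 (edgeR adjusted p = 0.019). The call of Mrps11 ended without control replicates 2 or 3 or double replicate 3 (adjusted p of up to 0.11). That of Mrps35 ended without control replicates 1 or 2 or double replicates 1 or 3 (up to 0.084), and that of Mrps7 without control replicate 3 or double replicates 1 or 3 (up to 0.093).

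A set of 5 members fell in the double group against each of the other 3 groups: Mrpl18, Mrpl20, Mrpl40, Mrps15 and Mrps18c. The share of all tested genes that fell in all 3 comparisons is not given, so this count has no background. The 3 comparisons share the double libraries, so they are not independent of each other. Mrpl18, a protein of the central protuberance of the large subunit, had 67.3, 70.0 and 64.6 CPM in double libraries, against 76.5, 82.0 and 76.5 CPM in inv(3), 78.0, 77.8 and 76.7 CPM in K700E and 79.4, 77.3 and 80.9 CPM in control. The double libraries lay below all 9 others. It fell by 0.24 ± 0.04 against control (SE, edgeR adjusted p = 0.00088), by 0.22 ± 0.04 against inv(3) (edgeR adjusted p = 0.0046) and by 0.20 ± 0.04 against K700E (edgeR adjusted p = 0.0018), and between K700E and control it differed by -0.03 ± 0.04. Mrps15, a small subunit protein with a bacterial counterpart, had 45.1, 46.6 and 44.0 CPM in double libraries, against 48.8, 50.3 and 48.3 CPM in inv(3), 48.8, 47.8 and 49.5 CPM in K700E and 51.9, 51.1 and 51.0 CPM in control, again with no overlap. Its changes were -0.18, -0.12 and -0.11 against control, inv(3) and K700E, and the call against inv(3) (edgeR adjusted p = 0.042) was lost in 11 of 23 alternatives, among them without control replicate 2, any 1 inv(3) library or double replicates 1 or 3 (adjusted p of up to 0.15). Mrps18c, a conserved small subunit protein, had 28.2, 30.5 and 29.3 CPM in double libraries, below all 9 others, which began at 31.3 CPM in K700E replicate 1. Mrpl40 and Mrpl20 averaged 33.7 and 40.7 CPM in the double group, against 37.3 and 46.3 CPM in inv(3), 39.1 and 45.3 CPM in K700E and 39.1 and 46.3 CPM in control. Against inv(3), Mrps18c lost its call without inv(3) replicates 2 or 3 or double replicates 1 or 3 (adjusted p of up to 0.11), Mrpl20 without inv(3) replicate 2 or double replicate 3 (up to 0.072), and Mrpl40 in 13 of 23 alternatives, with up to 0.18 without double replicate 1.

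Set against inv(3) alone, the double group showed the change that goes with adding Sf3b1 K700E on that background. Of 77 members 9 fell and none rose by edgeR, where 22.6% of all tested genes were called, 9.13% as lower and 13.4% as higher. The median log2 change was -0.09 over the members, -0.09 over the large subunit and -0.08 over the small subunit, against 0.00 over all genes, and 63 of 77 changes were negative, against 49.4% of all genes. Mrpl51, a mitochondria-specific large subunit protein, had 55.6, 63.3 and 53.3 CPM in double libraries and 70.9, 75.7 and 68.1 CPM in inv(3). The groups did not overlap, and it fell by 0.32 ± 0.06 (SE, edgeR adjusted p = 0.0045). Mrpl44, an RNase III-like protein of the large subunit, had 55.3, 61.7 and 56.3 CPM in double libraries and 65.7, 67.8 and 65.8 CPM in inv(3), a change of -0.20 ± 0.04 (edgeR adjusted p = 0.0074). Both calls, and that of Mrpl18, held under every alternative run. Mrpl41 and Mrps21, at -0.22 and -0.19, lost their calls without inv(3) replicate 2, double replicate 1 or double replicate 3 (adjusted p of up to 0.11 and 0.088). The count of 9 became 5 without inv(3) replicate 2, 4 without double replicate 1 and 3 without double replicate 3. With the GC offset it became 18. All of these calls were lower. The shares of all genes called lower with the GC offset or without single libraries are not given.

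Set against K700E alone, the double group showed the change that goes with adding inv(3) on the Sf3b1-mutant background. Of 77 members 29 fell and none rose by edgeR, where 49.2% of all tested genes were called, 23.5% as lower and 25.7% as higher. The median log2 change was -0.10 in all members, in the large subunit (19 of 48 lower) and in the small subunit (10 of 29 lower), against 0.03 over all genes, and 63 of 77 changes were negative, against 46.8% of all genes. CPM did not overlap in 37 members, all lower in the double group, where 28% of all genes were lower and 29.6% higher without overlap. With the GC offset 44 members were called, all lower, and the share of all genes called lower with it is not given. Beside Mrpl52, Mrpl35, Mrpl50 and Mrps22, the largest falls were those of Mrpl47, Mrps6 and Mrps18b. Mrpl47, the counterpart of a bacterial protein at the exit of the peptide tunnel, had 13.6, 15.2 and 15.1 CPM in double libraries and 18.9, 20.2 and 19.5 CPM in K700E, and fell by 0.41 ± 0.06 (SE, edgeR adjusted p = 0.00021). Mrps6 averaged 8.98 ± 0.31 CPM in the double group and 10.8 ± 0.44 CPM in K700E (SD, n = 3 each), a fall of 0.27 ± 0.07 (edgeR adjusted p = 0.0061). Mrps18b averaged 43.4 ± 2.3 CPM in the double group and 51.4 ± 1.3 CPM in K700E (SD, n = 3 each), a fall of 0.24 ± 0.05 (edgeR adjusted p = 0.0015). Mrpl42 and Mrpl3, at -0.23 and -0.22, and Mrps2 at -0.20 were called under every alternative, as were the 3 just described.

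Inv(3) against control and double against K700E share no library, and each adds inv(3) to 1 background. Both come from the same fit with a shared estimate of the spread. The first also sets libraries without Y-linked RNA against libraries with it. All 13 members that fell in the first comparison also fell in the second, which is 100% of the first list and 44.8% of the second. Over all tested genes the lists shared 2136 genes, 76.5% of the 2793 that fell in the first comparison and 66.2% of the 3227 that fell in the second. The 13 shared members are Mrpl3, Mrpl16, Mrpl22, Mrpl35, Mrpl36, Mrpl39, Mrpl42, Mrpl50, Mrpl52, Mrps2, Mrps18b, Mrps22 and Mrps27, 9 of the large and 4 of the small subunit. The 16 that were called only on the K700E background include Mrpl47, Mrps6, Mrpl18 and Mrpl20, and the test of that difference is the interaction.

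**Figure D4:**
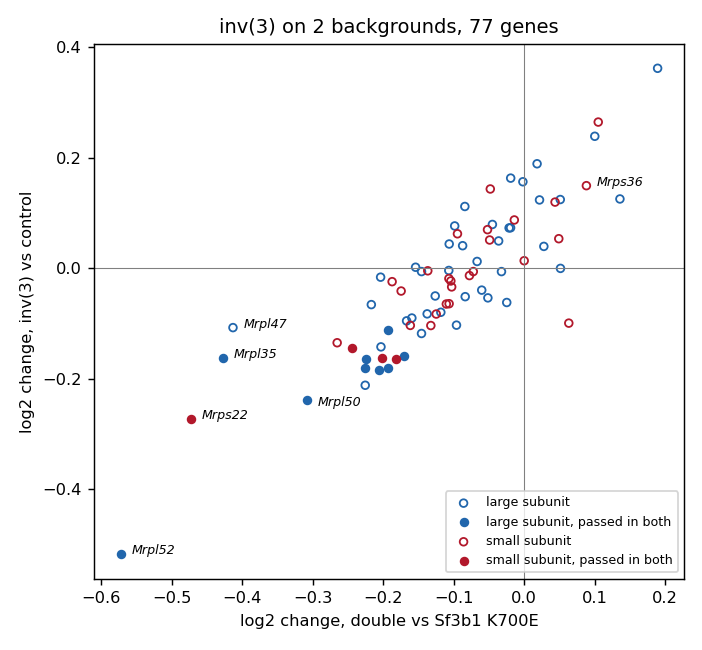
log2 change of each of the 77 members in double against K700E (horizontal) and in inv(3) against control (vertical), which share no library; filled points were called in both. The 13 filled points lie at the lower left, led by Mrpl52, and most open points lie left of 0.

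The interaction asks whether the effect of Sf3b1 K700E with inv(3) differs from its effect without it, as the change of double against inv(3) minus that of K700E against control. By edgeR 0 of 77 members were called, with 7 at an unadjusted p under 0.05, and 0.836% of all tested genes were called. The median was -0.08 over the members, -0.07 over the large and -0.08 over the small subunit, against 0.02 over all genes, and 71 of 77 values were negative, against 45.4% of all genes. The median standard error of a member's interaction was 0.077. The smallest p belonged to Mrpl47, at -0.31 ± 0.09 (SE, edgeR adjusted p = 0.13), Mrpl35, at -0.27 ± 0.08 (edgeR adjusted p = 0.14) and Mrpl18, at -0.19 ± 0.06 (edgeR adjusted p = 0.15). DESeq2 called these 3, with adjusted p of 0.025, 0.040 and 0.043, and edgeR with the GC offset called Mrpl47 (adjusted p = 0.0498).

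**Figure D5:**
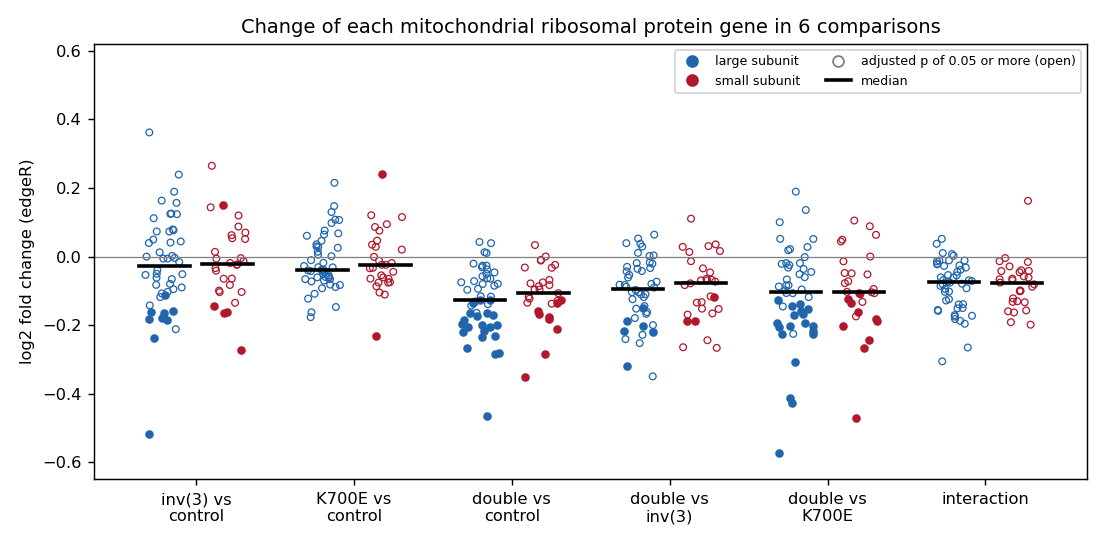
log2 fold change of each of the 77 members in the 6 comparisons, with the large subunit in blue and the small subunit in red; filled points passed an adjusted p of 0.05, and black lines are medians. The medians of both subunits lie near 0 in inv(3) against control and K700E against control and between -0.07 and -0.13 in the other comparisons.

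Counting over the 6 comparisons, 34 members were called in none, 17 in 1, 11 in 2 and 15 in 3. The same counts over all tested genes are not given, so these have no background. The 34 include the most abundant member, Mrpl33, and the least abundant, Mrps25, and also Mrpl57 and Mrps12, the genes that deviated most within the inv(3) group. The called members were spread over both subunits and over conserved and mitochondria-specific proteins, and no role group was called throughout in any comparison.

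The rest of the mitochondrial translation machinery was read in the same fits. Of all tested genes, 20.3% were called lower and 18.4% higher in inv(3) against control. These shares were 20.4% and 20.8% in double against control, and 23.5% and 25.7% in double against K700E. In double against inv(3) they were 9.13% and 13.4%. Of 6 tested mitoribosomal proteins named outside the Mrp pattern, 3 fell in double against control: Ptcd3, a pentatricopeptide protein of the small subunit (-0.26), Aurkaip1 (-0.19) and Ict1, the rescue factor built into the large subunit (-0.21). Of 29 genes for mitoribosome assembly and RNA maturation, 9 fell (31.0%) and 2 rose in double against control. In double against K700E 10 fell (34.5%) and 1 rose. In inv(3) against control 6 fell (20.7%, near the share of all genes) and 1 rose. Fastkd2, which binds the large ribosomal RNA, averaged 30.01 CPM in the double group and 29.3 CPM in inv(3), against 38.9 CPM in K700E and 37.0 CPM in control, and fell by 0.33 ± 0.04 in inv(3) against control (SE, edgeR adjusted p = 5.5e-05). Lrpprc, which stabilises mitochondrial messenger RNAs, moved alike, with 99.8 and 96.2 CPM in the double and inv(3) groups, against 125 and 121 CPM in K700E and control. Rbfa, a maturation factor of the small subunit, fell in double against inv(3) by 0.28 ± 0.08 (edgeR adjusted p = 0.032).

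Further along the same pathway, 1 of 13 translation factors (7.69%) fell in double against control (Gfm1, an elongation factor, by 0.19). That was below the 20.4% of all genes. In double against K700E 4 fell (30.8%, against 23.5% of all genes), and none were called in double against inv(3). Of 20 mitochondrial aminoacyl-tRNA synthetases, 6 fell and 1 rose in double against control, and 8 fell and 3 rose in double against K700E, where Vars2 was higher by 0.40. Of 10 genes for mitochondrial DNA transcription and replication 1 fell in double against control, Polg (-0.20), and 3 in inv(3) against control, where Peo1, the mitochondrial helicase, stood at -0.30 and Tfam, which packages mitochondrial DNA, at -0.14. Of 12 chaperones and proteases, 5 fell in inv(3) and 5 in double marrow against control (41.7% each), with 4 genes in both lists. Hspa9, the import motor chaperone, averaged 376 CPM in the double group and 340 CPM in inv(3), against 489 CPM in K700E and 449 CPM in control, and Hspd1, the matrix folding chaperonin, averaged 448 and 424 CPM, against 647 and 551 CPM. Hspd1 was the chaperone that differed most in double against K700E, at -0.53 ± 0.05 (SE, edgeR adjusted p = 5.2e-06).

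The products of mitochondrial translation work with the nuclear-encoded respiratory chain. Of its 81 genes, 37 fell (45.7%, against 20.4% of all genes) and 1 rose in double against control (median -0.14). In double against K700E 29 fell (35.8%, against 23.5% of all genes) and 4 rose (median -0.10). In inv(3) against control 19 fell (23.5%, against 20.3% of all genes) and 5 rose (median -0.03). Cox5a, a subunit of cytochrome oxidase, averaged 89.2 CPM in the double group, 99.96 CPM in inv(3), 120.4 CPM in K700E and 121 CPM in control. Of 81 cytosolic ribosomal protein genes, 3 fell (3.70%) and 1 rose in double against control (median 0.05). In double against K700E 5 fell (6.17%) and 8 rose (median 0.07). Of 12 transcriptional regulators of mitochondrial genes, Myc was the only one called in double against control, higher by 0.51 ± 0.11 (SE, edgeR adjusted p = 0.0031), with 306 CPM in the double group, 239 CPM in inv(3), 252 CPM in K700E and 214 CPM in control. Ppargc1b, a coactivator of mitochondrial genes, fell in inv(3) against control by 1.28 ± 0.26 (edgeR adjusted p = 0.0024), with 4.35 CPM in the double group and 2.48 CPM in inv(3), against 7.21 CPM in K700E and 6.04 CPM in control.

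Many of the listed cell cycle genes fell in each comparison of the double group, unlike in inv(3) against control. Of 20 such genes 14 fell in double against control (median -0.19) and 14 in double against inv(3) (median -0.25). In double against K700E 11 fell (median -0.16), and none rose in these comparisons. Of all tested genes 20.4%, 9.13% and 23.5% were called lower in them. In inv(3) against control, where single members also fell, 3 cell cycle genes fell and 2 rose (median 0.02). The part of the cell cycle in the change of the members was not tested. Ccna2, which drives S phase and mitosis, averaged 138 CPM in the double group, 169 CPM in inv(3), 177 CPM in K700E and 178 CPM in control.

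Several marker lists of other cells in the gate also differed between libraries with and without the inv(3) allele. The summed level of 11 erythroid genes was 259 to 386 TPM in the double group and 209 to 358 TPM in inv(3). It was 1261 to 1720 TPM in K700E and 790 to 836 TPM in control. In double against control 10 of 11 fell and 1 rose, where 20.4% of all genes were called lower. The sum of 12 mast cell, basophil and eosinophil genes was 593 to 708 TPM in the double group and 684 to 776 TPM in inv(3), against 1925 to 2306 TPM in K700E and 1808 to 2150 TPM in control. Macrophage genes (10) summed to 41.4 to 54.3 TPM in the double group and 44.1 to 77.2 TPM in inv(3), against 311 to 478 TPM in K700E and 207 to 245 TPM in control. Mature neutrophil genes (10 of 11 listed) went the other way, with 15110 to 22146 TPM in the double group and 25075 to 29340 TPM in inv(3), against 7047 to 13088 TPM in K700E and 8791 to 12818 TPM in control. Stem and early progenitor genes (10) summed to 421 to 492 TPM in the double group and 211 to 298 TPM in inv(3), against 536 to 610 TPM in K700E and 438 to 483 TPM in control, so the double range overlapped that of control. Primary granule and promyelocyte genes (7) summed to 34841 to 39881 TPM in the double group, 44512 to 47211 TPM in inv(3), 26719 to 31927 TPM in K700E and 40060 to 43588 TPM in control, a different order. Of the 8 T and NK genes, Cd3g and Ncr1 were at 0 in all double libraries and Cd3e in all control libraries, and the sum stayed at or under 2.75 TPM. The part of these cell types in the change of the member genes was not tested.

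The members lie on 17 chromosomes (GENCODE M21, GRCm38). Mrps22 spans positions 98588730 to 98601660 of chromosome 9, Mrpl50 spans 49512596 to 49521093 of chromosome 4, Mrpl35 spans 71812997 to 71826969 of chromosome 6, and Mrpl52 spans 54426909 to 54429756 of chromosome 14. A gene that starts within 1000 bases on the other strand, facing away, was found for 18 of 77 members (23.4%), against 10.2% of 12636 tested protein-coding genes. Mrpl50 and Zfp189 form such a pair. Exons of 32 members overlap those of another gene, 27 on the opposite strand, and unstranded reads of such pairs cannot be told apart. Mrpl18 overlaps Tcp1, a cytosolic chaperonin gene that changed by -0.21 in double against control, whereas Mrps22, Mrpl35, Mrpl50 and Mrpl52 overlap no other gene. Mrpl47 overlaps Actl6a and Ndufb5, which changed by -0.19 and -0.22 in double against K700E (edgeR adjusted p = 0.0010 each). Mrps11 and Mrpl46 overlap each other, and both were called lower in double against control. In double against control, 13 of the 32 members with overlap and 17 of the 45 without fell, with a median of -0.12 in both.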

How the data were processed

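RNA of lineage-negative, cKit-positive bone marrow was sequenced from 12 libraries, poly(A)-selected and unstranded per the labels' protocols. The deposited gene tables hold, per the file headers, RSEM-type expected counts, TPM, FPKM and isoform-weighted lengths made by the authors, on mm10 per the submitters' processing notes. The sources used here name no aligner. The deposited FPKM values were not used. TPM served for levels between genes and for sums, and expected counts, rounded to whole numbers, for tests.

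Counts were filtered with filterByExpr, scaled with TMM and fitted with edgeR 4.0.16 (quasi-likelihood, robust, R 4.3.3), with 4 group means from all 12 libraries and Benjamini-Hochberg adjustment over 13755 genes for each of 6 comparisons. A gene was called at an adjusted p under 0.05, and standard errors are the log2 change over the root of F. CPM are TMM-scaled. DESeq2 1.42.0, limma-voom 3.58.1, other scalings and filters, a replicate block, compared groups alone and leaving out each library were alternatives. A fit of the 9 libraries with Y-linked RNA and an offset for transcript GC content (known for 96.1% of tested genes and all members) were chosen after seeing the data. The code was tested on simulated counts.

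Members and accompanying gene lists were chosen with earlier results of these data known. In each comparison and subunit, the 6 called members with the largest rise and fall were eligible to be described singly, as were the 3 highest and 3 lowest levels in each subunit and up to 3 called genes with the smallest p in each accompanying list. Members outside this rule, overlapping or neighbouring genes, and the 5 members lower in the double group than in each other group were chosen after their values were seen.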

Additional observations from a re-analysis of the deposited data

How the results depend on the processing

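Over the members named singly, 973 alternative values kept direction and side of the threshold, 111 lost the call and 0 reversed. Replicate numbers did not pair the samples (18 same-number correlations of -0.38 to 0.27, 3 over 0.1, 4 best with their own number), and with the replicate block the K700E count against control became 1. Upper-quartile scaling gave 22 members in inv(3) against control (median -0.065), 5 in K700E against control (median 0.00, with the sign turned, 0.0043) and a median of -0.16 in double against K700E. Requiring a mean CPM of at least 5 gave medians of -0.000798 and -0.14 in the last 2, and no filter gave 1 member in K700E against control. Fitting the compared groups alone gave 7, 1 and 5 members in inv(3) against control, K700E against control and double against inv(3). The GC offset gave 18 in double against inv(3), 44 in double against K700E (median -0.14, large minus small -0.053), 1 in the interaction and a reversed median of 0.015 in K700E against control. DESeq2 gave 3 in the interaction. With summed CPM in place of TPM, large and small subunit log2 ratios were -0.027 and -0.031 in inv(3) against control, -0.022 and -0.011 (both reversed) in K700E against control, -0.13 and -0.11 in double against control, -0.11 and -0.083 in double against inv(3), and -0.11 and -0.10 in double against K700E. With median TPM they were -0.17 and -0.071, 0.075 and 0.0091, 0.023 (reversed) and -0.065, and -0.22 and -0.14 in these comparisons other than double against control. Shares of all genes under these alternatives are not given, and the cause of these shifts was not tested.

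Leaving out 1 library gave 6 to 16 members in inv(3) against control, 0 to 2 in K700E against control, 17 to 34 in double against control, 3 to 12 in double against inv(3), 20 to 31 in double against K700E and 0 in the interaction, with medians of -0.045 to -0.011, -0.044 to 0.0063, -0.13 to -0.11, -0.11 to -0.068, -0.13 to -0.091 and -0.12 to -0.053. Shares of all genes called in these fits are not given. With 3 libraries a group and a median standard error of 0.055, member changes of this size lie near the limit of detection.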
